A study of Marchantia polymorpha with 78 samples.

Results

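MpR2R3-MYB5 (Mp8g11870) is 1 gene of the MYB family of transcription factors in the liverwort Marchantia polymorpha, and its transcript level was followed in all 26 groups of a light time course. It is 1 of the 19355 genes in the deposited expression table and 1 of 59 counted as MYB family, by name except MpGCAM1, which was added. It was chosen by its early rise, the TPM at 30 min of blue and far-red light against darkness. Levels at 30 and 60 min are therefore given as a description, without a test, and tests are given for 180 min, 12 h and 24 h.

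All plants were wild type Tak-1, a male line. Gemmae, the clonal propagules of this plant, grew at 23 °C under white light without a break for 8 days and were then kept for 24 h in the dark, a step that every group shares, time zero and darkness controls included. Plates were then left in darkness or moved to white light (50 to 60 µmol m⁻² s⁻¹), blue light (430 nm, 30 to 40), red light (660 nm, 80 to 90) or far-red light (730 nm, 30 to 40), and thalli were collected after 30 min, 60 min, 180 min, 12 h and 24 h. Each of the 78 poly(A) RNA libraries holds 3 pooled plants, and each group has 3 libraries. The labels put 3 biological replicates on a plate, which means that an effect of the plate and one of the treatment cannot be told apart, and the lights differ in intensity as well as in colour.

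MYB proteins bind DNA through repeated helix-turn-helix units, and the R2R3 class carries the repeats called R2 and R3. In land plants these proteins switch on or off sets of target genes, among them genes for phenylpropanoid pigments, for cell shape and for organ formation. In Marchantia, MpGCAM1 is needed to form the cups that bear gemmae, and MpR2R3-MYB14 activates the synthesis of red phenylpropanoid pigments. Red and far-red light are sensed in this plant by phytochrome, and blue light by cryptochrome and phototropin. No function of MpR2R3-MYB5 itself is stated in the sources used here.

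Levels are in TPM, the share of each library's transcripts scaled for transcript length and to a sum of 1000000 per library, whose sequencing depth is not known. Between 11838 and 12262 genes per library reached 1 TPM. The photosynthesis genes MpRBCS, MpCHLD and MpGUN5 were present in every library, at 63.8 to 319, 51.9 to 255 and 107 to 757 TPM. The sperm genes MpPRM and MpLC7 had a median of 0 TPM, so the labelled thallus showed its photosynthesis genes and little of late sperm formation, while the other listed male genes, MpCEN1 and MpDUO1, had medians of 51.5 and 0.863 TPM. MpRKD, a regulator of germ cells, had a median of 101 TPM. The library of darkness at 60 min, replicate 3, stood apart from its group: its mean correlation with its mates across genes was 0.98885, and the next lowest of all libraries was 0.99114. The differences of MpR2R3-MYB5 from darkness at 60 min and the MYB family rises of that time are given with and without it. So are the bHLH rises at 60 min of far-red light. Other values of that group include it.

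MpR2R3-MYB5 transcript was above 0 in all 78 libraries and ranged from 11.92 to 132.4 TPM. Its highest group mean was 126.3 TPM, in blue light at 60 min, and its lowest 12.61 TPM, in darkness at 30 min. It was low at the end of the dark period, high within 30 min of white, blue or red light, and at an intermediate level in far-red light. Over the following day it rose in darkness and fell in white, blue and red light, so that by 24 h its level in blue light was below that in darkness. As these are whole thalli, more cells with the transcript and more transcript per cell cannot be told apart.

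At time zero the 3 libraries had 14.48, 15.09 and 13.01 TPM (14.2 ± 1.07; SD, n = 3). After a further 30 min of darkness they had 13.89, 12.02 and 11.92 TPM, and at 60 min they had 16.27, 14.78 and 18.16 TPM, the last of these being the library that stands apart. Both early darkness groups overlapped time zero. At 180 min of continued darkness the libraries had 25.47, 28.16 and 25.69 TPM, at 12 h they had 26.46, 38.79 and 40.43 TPM, and at 24 h they had 31.61, 33.32 and 32.98 TPM. All 9 later darkness libraries were above all 3 of time zero, and darkness at 12 h was the group with the widest spread of all 26, its first replicate lying well below the other two. In the limma fit across all tested genes the level in darkness exceeded time zero by 0.85 on the log2 scale at 180 min (SE 0.0981, adjusted p = 6.1e-10), by 1.23 at 12 h (adjusted p = 1.1e-16) and by 1.15 at 24 h (adjusted p = 1.1e-15). Of all 13054 genes tested, 28.2%, 38.2% and 37.2% were higher by the same threshold (an adjusted p under 0.05) at these times, so a rise in darkness was common among genes.

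In blue light the libraries had 108.2, 104.6 and 107.3 TPM at 30 min and 120.3, 126.4 and 132.4 TPM at 60 min. The values at 180 min were 94.58, 107.9 and 102.9 TPM, those at 12 h were 58.05, 52.25 and 62.63 TPM, and those at 24 h were 21.9, 20.06 and 19.86 TPM. Every blue library up to 12 h exceeded every darkness library of any time, whereas the 3 blue libraries of 24 h lay below all darkness libraries of 180 min and later. From 180 min to 24 h the mean in blue light fell from 101.8 to 20.61 TPM, 4.94-fold, while the mean in darkness went from 26.44 to 32.64 TPM.

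White light gave 85.7, 100.3 and 88.42 TPM at 30 min and 97.75, 83.26 and 96.04 TPM at 60 min. Its later values were 74.53, 79.31 and 75.8 TPM at 180 min, 73.19, 76.98 and 79.42 TPM at 12 h and 32.61, 33.28 and 39.3 TPM at 24 h. In white light the levels at 180 min and 12 h were thus alike, with overlapping libraries, and no time between them was sampled. The 24 h libraries were all below those of both times, with a mean 2.18-fold lower than at 12 h.

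In red light the libraries had 89.64, 95.59 and 90.22 TPM at 30 min and 95.23, 93.09 and 94.0 TPM at 60 min. They had 74.68, 78.93 and 98.71 TPM at 180 min, 85.25, 75.04 and 84.96 TPM at 12 h and 32.95, 38.52 and 31.28 TPM at 24 h. Neighbouring time points from 30 min to 12 h overlapped in red light, and replicate 3 at 180 min was higher than its mates. The drop came between 12 h and 24 h, where the mean fell 2.39-fold and the libraries did not overlap.

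Far-red light gave 32.81, 36.27 and 33.64 TPM at 30 min and 59.81, 47.08 and 49.28 TPM at 60 min. Later libraries had 37.33, 34.58 and 33.04 TPM at 180 min, 62.49, 50.34 and 53.02 TPM at 12 h and 50.11, 49.92 and 45.78 TPM at 24 h. The level went up, down and up again and then slightly down. The libraries of neighbouring times did not overlap at any of these steps, none of which was tested. At the last step the gap was narrow, between 50.34 TPM at 12 h and 50.11 TPM at 24 h. The mean at 24 h (48.6 TPM) was above that at 180 min (34.98 TPM), the opposite order from white, blue and red light.

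**Figure D1:**
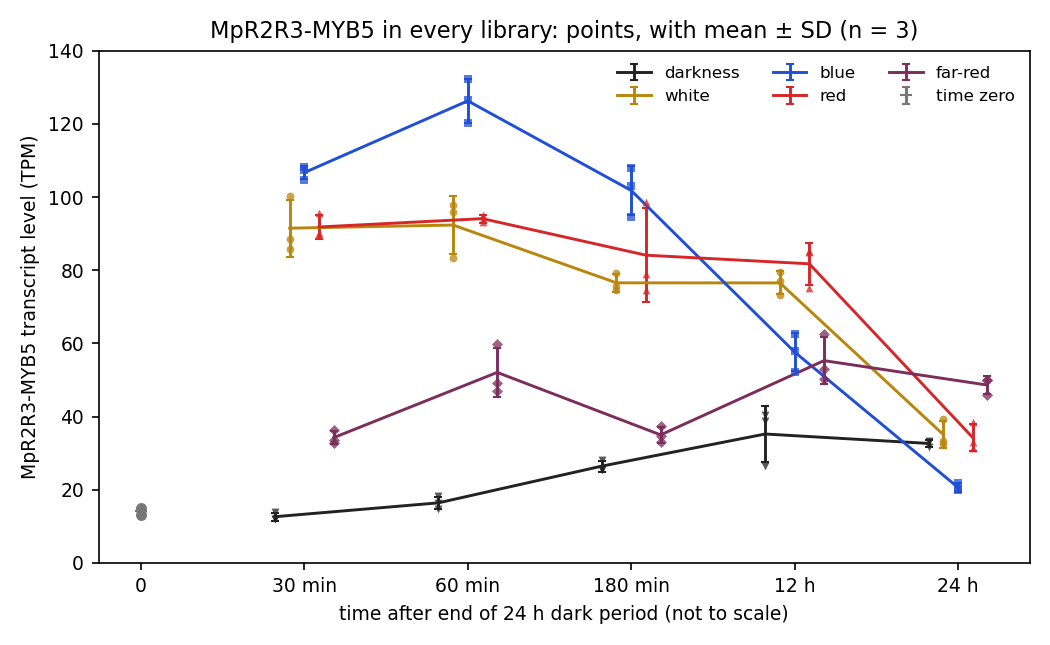
Transcript level of MpR2R3-MYB5 (y axis, TPM) against time after the dark period (x axis, not to scale). Points are single libraries, lines join group means and bars are SD (n = 3). Blue light peaks at a mean of 126.3 TPM at 60 min and ends at 20.61 TPM at 24 h, below darkness at 32.64 TPM.

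Ordered by their means, the 26 groups form few separate steps. Of the 25 neighbouring pairs in this order, 19 had overlapping libraries and 6 did not. Blue light at 60 min stood above all other groups. The following 10 groups, from blue light at 30 min (106.7 TPM) down to white light at 12 h (76.53 TPM), each overlapped their neighbour, and they are all of the remaining white, blue and red groups up to 12 h except blue light at 12 h. Another chain ran from blue light at 12 h (57.64 TPM) through far-red light at 12 h and 60 min to far-red light at 24 h (48.6 TPM). A further chain ran from darkness at 12 h (35.22 TPM) to darkness at 24 h (32.64 TPM) and held white and red light at 24 h and far-red light at 180 and 30 min. Darkness at 180 min and blue light at 24 h each stood alone, and darkness at 60 min, time zero and darkness at 30 min formed the low end. The coefficient of variation within a group was between 1.14% and 21.7%, with a median of 6.86%.

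Differences from darkness were largest at 30 min, the earliest time sampled in light, for white, blue and red light, and at 60 min for far-red light. At 30 min the mean was 7.26 times that in darkness in white light, 8.46 times in blue, 7.28 times in red and 2.72 times in far-red light. On the log2(TPM + 1) scale the differences were 2.76, 2.99, 2.77 and 1.37 (SE 0.0981). By size of rise this placed the gene 7th, 4th, 8th and 12th of 13054 tested genes, which describes the measurement for which it was chosen. At 60 min the differences were 2.42, 2.88, 2.45 and 1.60, and without the darkness library that stands apart they were 2.50, 2.95, 2.53 and 1.68. The gene then ranked 73rd, 35th, 69th and 50th. White and red libraries overlapped at both times, blue libraries were above both, and all far-red libraries were below those of the other lights. The median difference of all tested genes from darkness was 0.134, 0.169, 0.172 and 0.0587 at 30 min. With TMM scaling, which takes that median close to 0, the differences of MpR2R3-MYB5 at 30 min were 2.63, 2.79, 2.58 and 1.3.

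At 180 min the level was above darkness in all 4 lights. The difference was 1.5 in white light (SE 0.0981, limma adjusted p = 1.4e-21), 1.91 in blue (adjusted p = 1.4e-26) and 1.62 in red (adjusted p = 3.4e-23), with means 2.90, 3.85 and 3.18 times that in darkness. Far-red light differed by 0.39 (adjusted p = 0.00085), a mean 1.32 times that in darkness, and its libraries did not overlap those of darkness. Of all tested genes, 39.4%, 37.4%, 38.1% and 28% were higher by this threshold in white, blue, red and far-red light. By size, the rise of MpR2R3-MYB5 was then in the top 4.14%, 1.97%, 3.07% and 14.1% of tested genes.

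At 12 h the level was again above darkness in every light, by 1.12 in white (adjusted p = 4e-16), 0.71 in blue (adjusted p = 2.2e-09), 1.21 in red (adjusted p = 1.4e-17) and 0.65 in far-red light (adjusted p = 6.9e-08), all by limma with SE 0.0981. Replicate 1 of darkness at 12 h, the low library of that group, is part of each of these differences. Without it they were 0.93 in white (limma adjusted p = 2.6e-13) and 0.53 in blue light (limma adjusted p = 2.1e-06). Those in red and far-red light were then 1.025 (limma adjusted p = 7.6e-15) and 0.47 (limma adjusted p = 4.6e-05). The far-red difference was 0.38 without replicate 1 of every group (limma adjusted p = 0.0034). Over all alternative settings the largest limma adjusted p was 4.3e-05 in white, 0.0015 in blue, 3.5e-05 in red and 0.01 in far-red light. The libraries of each light were all above the 3 darkness libraries. The share of genes that were higher was 42.4%, 39.9%, 41.7% and 33.7%. Blue libraries, the highest of the lights by mean at 180 min, now overlapped those of far-red light.

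At 24 h the lights had parted. In blue light the level was below darkness by 1.58-fold, a log2 difference of −0.64 (SE 0.0981, limma adjusted p = 3.7e-08), where 36.6% of tested genes were lower. In far-red light it was above darkness by 1.49-fold, a log2 difference of 0.56 (limma adjusted p = 1.2e-06), where 42.4% of genes were higher. White and red light differed from darkness by 0.10 (limma adjusted p = 0.37) and 0.06 (limma adjusted p = 0.56), and their libraries overlapped those of darkness. The intervals of 2 SE on either side reached from −0.10 to 0.29 for white and from −0.13 to 0.26 for red light. In all, 10 of the 12 differences from darkness at 180 min and later passed the threshold, 9 of them upwards.

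**Figure D2:**
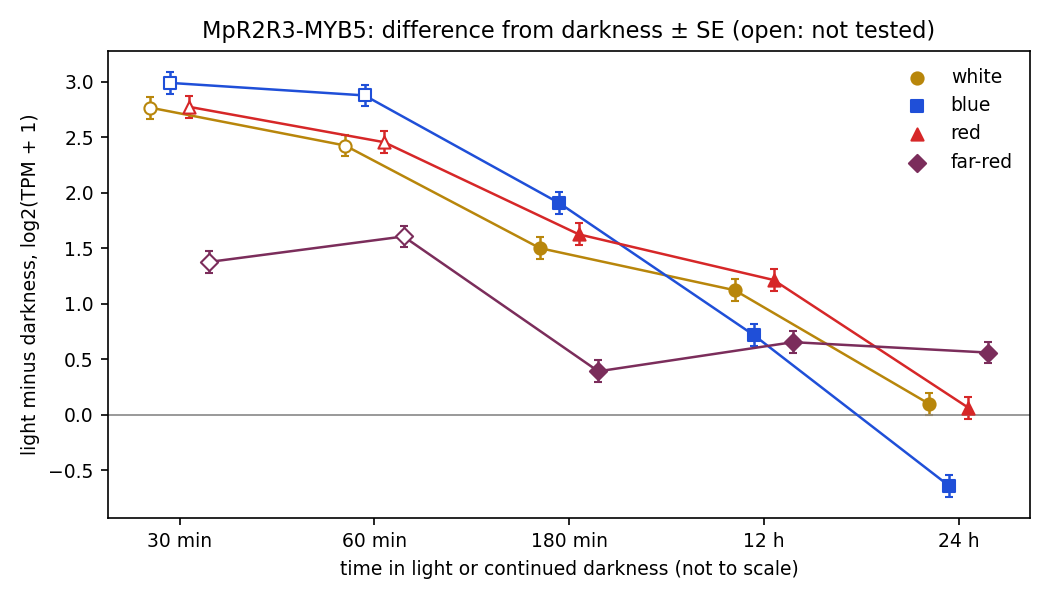
Difference of MpR2R3-MYB5 from darkness at the same time (y axis, log2(TPM + 1)) against time (x axis, not to scale), with bars for the SE of the limma fit. Open symbols, at 30 and 60 min, were not tested. Blue light goes from 2.99 at 30 min to −0.64 at 24 h, and far-red light is at 0.39, 0.65 and 0.56 at the last 3 times.

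The change of the response with time was itself tested, as the difference from darkness at 24 h minus that at 180 min. It was −1.40 in white light (SE 0.139, limma adjusted p = 2e-13), −2.54 in blue light (adjusted p = 1.3e-24) and −1.56 in red light (adjusted p = 2.7e-15). In far-red light it was 0.17 (adjusted p = 0.35), with an interval of 2 SE from −0.11 to 0.45. The response was lower at 24 h for 29.5%, 30.9% and 32.7% of tested genes in white, blue and red light. The rise in darkness is part of these differences, but the level itself also fell in all 3 lights, by 1.11, 2.25 and 1.27 on the log2 scale between 180 min and 24 h.

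Compared with each other at the same time, the lights differed in 14 of 18 tested pairs. At 180 min blue light was above white light by 1.33-fold, a log2 difference of white minus blue of −0.40 (SE 0.0981, limma adjusted p = 0.0012), where 10.9% of tested genes were lower. Blue exceeded red light by 0.28 (adjusted p = 0.025), with overlapping libraries, where 13% of genes were higher. That call was lost without any one of 4 libraries: replicate 2 (adjusted p = 0.12) or 3 (adjusted p = 0.067) of blue light, or replicate 1 (adjusted p = 0.18) or 2 (adjusted p = 0.11) of red light. White, blue and red light exceeded far-red light at this time by 1.11, 1.51 and 1.23, where 33.3%, 31.6% and 34.3% of genes were higher. White and red light differed by −0.12 (adjusted p = 0.38; interval of 2 SE from −0.32 to 0.07).

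The order of blue and red light was reversed later. At 12 h blue light was below red light by 1.42-fold, a log2 difference of −0.50 (SE 0.0981, limma adjusted p = 4.4e-05), and at 24 h by 1.66-fold, a difference of −0.70 (limma adjusted p = 1.3e-08). The libraries of the 2 lights did not overlap at either time, and 15.7% and 22.2% of tested genes were lower. White light exceeded blue light by 0.41 at 12 h (limma adjusted p = 0.00093) and by 0.73 at 24 h (limma adjusted p = 7.1e-09), where 15.8% and 21.2% of genes were higher. White minus red was −0.09 at 12 h (limma adjusted p = 0.65; interval of 2 SE from −0.29 to 0.10) and 0.03 at 24 h (limma adjusted p = 0.81; interval from −0.16 to 0.23). The sign at 24 h turned under other scalings.

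Far-red light went from the lowest to the highest of the 4 lights. At 12 h it was below white light by 0.47 (limma adjusted p = 2.6e-05, with 35.4% of genes higher in white light) and below red light by 0.56 (limma adjusted p = 8.6e-07, with 35.2% higher in red light). Blue minus far-red was then 0.06 (limma adjusted p = 0.59; interval of 2 SE from −0.14 to 0.26). At 24 h the level in far-red light was 1.39-fold above white, 1.42-fold above red and 2.36-fold above blue light, with log2 differences of −0.46, −0.50 and −1.20 for white, red and blue minus far-red (limma adjusted p = 3e-05, 7.7e-06 and 4.3e-17). All 3 far-red libraries of 24 h were above all 9 of the other lights. Of tested genes, 41.7%, 43.8% and 42.4% were lower in white, red and blue than in far-red light at that time.

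Within the MYB family the gene was of middling level in early darkness and among the more abundant in early white, blue and red light. TPM is scaled by length, so levels can be set side by side. In darkness at 30 min its mean TPM was 30th of the 59 family members and made up 0.755% of their summed TPM. In blue light at 60 min it was 6th and made up 4.6%, and in blue light at 24 h it was 26th with 1.17%. By 24 h it was 17th in darkness and in far-red light, 20th in white light and 16th in red light. Of the 59 members, 45 reached 1 TPM in at least 3 libraries and were tested, MpR2R3-MYB5 among them.

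MpR2R3-MYB5 was chosen by its rise at 30 min, so its rank in the family at that time is a description. At 30 min it had the highest log2 difference from darkness of the 45 tested members in each of the 4 lights. The next was MpGCAM1 in white (2.34), blue (2.31) and red light (2.09) and Mp1R-MYB20 in far-red light (1.09). MpGCAM1 rose from 1.17 ± 0.174 TPM in darkness to 9.754 ± 0.0503 TPM in blue light (SD, n = 3), a level well below that of MpR2R3-MYB5. Of the 44 other tested members, 5 rose in white light, 8 in blue, 7 in red and 1 in far-red light, and 0 fell in any of them. Here and in the lists that follow, a gene rose or fell when its limma adjusted p was under 0.05 and its log2 difference at least 1 in size. Of all tested genes, 2.49%, 4.5%, 4.19% and 0.253% rose by this rule and 0.437%, 0.613%, 0.575% and 0.0383% fell. The family's median difference was 0.417, 0.579, 0.588 and 0.336, beside 0.134, 0.169, 0.172 and 0.0587 over all tested genes. At an unadjusted p under 0.05, with no limit on size, 34, 38, 37 and 30 members were higher and 0, 1, 0 and 0 lower, beside 42.0%, 46.5%, 46.8% and 31.9% of all tested genes higher and 15.4%, 16.3%, 16.5% and 14.8% lower. With TMM scaling the count of rises in red light was 4, where 283 of all 13054 genes rose. The single call in far-red light was lost when replicate 2 was left out of every group. Among the other members with large rises were MpR2R3-MYB20, at 157.4 TPM in blue light against 42.32 TPM in darkness, and Mp1R-MYB7, at 289.7 TPM in white light against 98.81 TPM in darkness. Mp1R-MYB20 was at 108.2 TPM in blue light against 35.13 TPM in darkness.

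**Figure D3:**
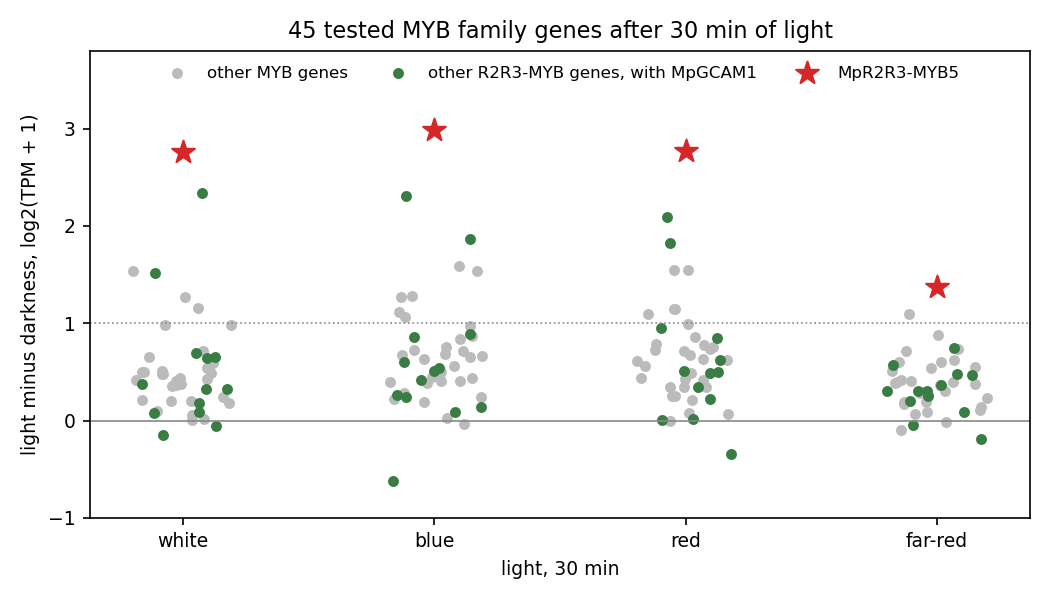
Difference from darkness at 30 min (y axis, log2(TPM + 1)) for the 45 tested MYB family genes in each light (x axis, points spread sideways for sight only). The dotted line marks a difference of 1. MpR2R3-MYB5 (star), which was chosen by its rise at this time, lies at 2.76, 2.99, 2.77 and 1.37, above every other member in all 4 lights.

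At 60 min 8, 11, 9 and 4 of the 44 other members rose in white, blue, red and far-red light and 0 fell, where 7.41%, 8.56%, 9.89% and 2.05% of all tested genes rose and 2.33%, 2.11%, 2.41% and 0.276% fell. Without the darkness library that stands apart the counts were 10, 14, 12 and 6. With TMM scaling they were 7, 6, 5 and 3, where 708, 696, 784 and 166 of all 13054 genes rose. By 180 min the members that moved differed among themselves: 4 rose and 2 fell in white light, 3 rose and 1 fell in blue, 2 rose and 1 fell in red, and 3 rose and 0 fell in far-red light. Over all genes 10.6%, 9.64%, 10.1% and 1.71% rose and 8.53%, 8.09%, 8.69% and 0.253% fell. The family's counts in white, blue and red light were thus near or below the background, and far-red light had 6.82% of the family rising. Without replicate 1 or 3 of every group, 4 or 5 members rose in red light, and without replicate 2 of every group 1 fell in white light. With median-of-ratios scaling 2 rose in white light, where 1246 of all 13054 genes rose. MpRR-MYB4 rose in white, blue and red light (to 347.2 TPM in blue light against 112.6 TPM in darkness), and MpR2R3-MYB9 fell in the same lights (to 206.7 TPM in blue light against 556.9 TPM). MpR2R3-MYB20, which like MpR2R3-MYB5 was high at 30 min, was by 180 min of white light below darkness (36.44 against 75.72 TPM, a log2 difference of −1.04, limma adjusted p = 4.2e-16), while MpR2R3-MYB5 was still above it.

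At 12 h 3 members rose and 2 fell in white light, 3 rose and 1 fell in blue, 6 rose and 1 fell in red, and 1 rose and 0 fell in far-red light. The shares of all genes were 13.4%, 10.8%, 13.2% and 2.21% upwards and 10%, 8.84%, 11.1% and 1.04% downwards. At 24 h 4 rose and 2 fell in white light, 2 rose and 2 fell in blue, 3 rose and 5 fell in red, and 2 rose and 0 fell in far-red light. Over all genes 14.5%, 13.5%, 16% and 5.98% rose and 11.7%, 10.1%, 13.6% and 2.98% fell, so these late counts of the family are near or below the background. With TMM scaling 1 rose in far-red light at 24 h, where 602 of all 13054 genes rose. Without replicate 3 of every group 1 fell in white light at 12 h. MpR2R3-MYB9 fell furthest, to 78.42 TPM in red light against 618.9 TPM in darkness (a log2 difference of −2.97).

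Across the 26 group means, the family members followed MpR2R3-MYB5 to different degrees. Pearson's r of the log2 levels was between −0.339 and 0.897 over the 44 other tested members, with a median of 0.475, and was above 0 for 37. The highest were Mp1R-MYB13 (0.897), Mp1R-MYB7 (0.884) and Mp1R-MYB20 (0.826), all of the 1R class with a single MYB repeat unit, and the lowest were MpR2R3-MYB9 (−0.234), MpR2R3-MYB1 (−0.288) and Mp1R-MYB3 (−0.339). The group means of MpR2R3-MYB1 (0.288 to 1.45 TPM) and Mp1R-MYB3 (17.7 to 26.6 TPM) spanned less than 1 on the log2(TPM + 1) scale. The points behind r share the darkness and light groups and their libraries, so r is a description of likeness and carries no p. MpR2R3-MYB14, the pigment regulator, named here after its values were seen, stayed between 0.111 and 2.77 TPM and had an r of 0.138.

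Over the whole table, 8708 tested genes had group means spanning at least 1 on the log2 scale. Their median r with MpR2R3-MYB5 was 0.14, and 34 had an r of at least 0.9. The 5 most alike were MpSHI (0.963), MpTRIHELIX37 (0.954), MpBromo5 (0.949), MpGARP5 (0.945) and Mp6g05370 (0.94), which has no symbol. The next with a symbol was MpC1HDZ (0.938). All 5 were also the most alike over the 78 single libraries, but only 2 of the 5 were when ranks were used in place of levels. SHI proteins activate auxin synthesis genes in Arabidopsis, trihelix and GARP proteins are DNA-binding families of plants, bromodomains bind acetylated lysines on histones, and C1HDZ is a homeodomain factor needed for oil body cells in Marchantia.

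These genes spanned a smaller fold range than MpR2R3-MYB5, and not all had the same highest group. MpBromo5, like MpR2R3-MYB5, was highest in blue light at 60 min, whereas MpSHI, MpTRIHELIX37, MpGARP5 and Mp6g05370 were highest in red light at 60 min (24.0, 64.4, 174 and 140 TPM) and MpC1HDZ in blue light at 180 min (88.3 TPM). MpSHI had a mean of 4.39 TPM in darkness at 30 min, 21.4 TPM in blue light at 60 min and 6.17 TPM in blue light at 24 h. MpTRIHELIX37 had 22.2, 59.8 and 27.6 TPM in the same groups. MpBromo5 had 63.2, 245 and 95.3 TPM. As for MpR2R3-MYB5, the mean of each of these in blue light at 24 h lay under that in darkness at 24 h (8.48, 34.2 and 106 TPM), and so did those of Mp6g05370 (80.0 against 90.6 TPM) and MpC1HDZ (37.4 against 47.6 TPM). MpGARP5 went the other way, with 78.1 TPM in blue light against 66.4 TPM in darkness. These differences are given without a test. Least alike among genes with a symbol were MpHCT (−0.759), an acyltransferase of phenylpropanoid synthesis, MpKFB01_20 (−0.733), an F-box protein with kelch repeats, and MpPPR_5 (−0.713), of a family that processes organelle RNA. MpHCT had 209 TPM in darkness at 30 min and 85.6 TPM in blue light at 60 min.

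**Figure D4:**
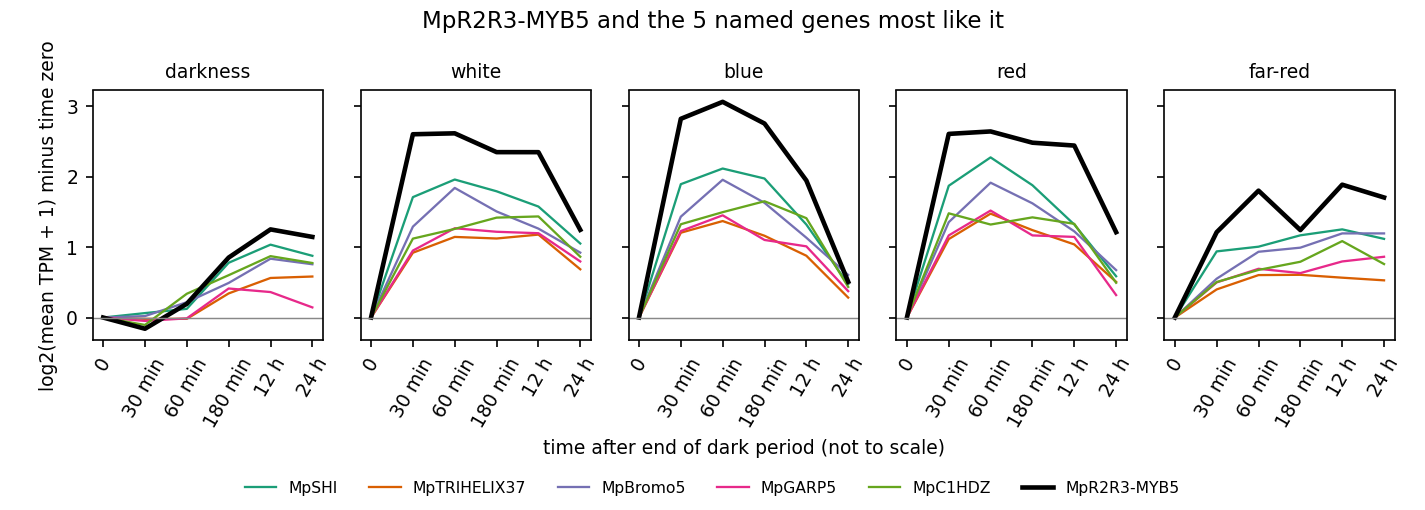
Change from time zero of the group means (y axis, log2(mean TPM + 1)) over time (x axis, not to scale) in darkness and each light, for MpR2R3-MYB5 (thick black line) and the 5 named genes of highest r. All 6 are near their time zero level after 30 min of darkness and above it after 30 min of every light, and the black line is the highest in white, blue and red light from 30 min to 12 h.

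MpC1HDZ is also a marker of oil body cells. Its level went from 22.8 to 95.2 TPM over the libraries. The other listed markers of these cells followed MpR2R3-MYB5 less: r was 0.654 for MpERF13, 0.29 for MpABCG1 and −0.108 for MpSYP12B. All 4 were above 0 in 78 libraries, and their summed level ranged from 32.5 TPM in darkness at 30 min to 114 TPM in white light at 12 h. The apical notch marker MpYUC2 had an r of 0.803 and MpTAA 0.468, with sums between 7.71 and 47.4 TPM. For the gemma cup markers MpGCAM1 and MpKAR r was 0.817 and 0.673, with sums between 19.8 and 66.1 TPM. The part of these cell types in the levels of MpR2R3-MYB5 was not tested.

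The genes numbered next to MpR2R3-MYB5 were compared with it. MpSPL4 (Mp8g11850), of the SQUAMOSA promoter-binding family and 2 numbers before it, had an r of 0.871 and group means between 38.3 TPM at time zero and 94.2 TPM in blue light at 180 min. At 30 min it differed from darkness by 0.59, 0.83, 0.73 and 0.36 in white, blue, red and far-red light, less than MpR2R3-MYB5 in each. The nearer neighbours were hardly expressed: Mp8g11860 had group means of 0.15 to 1.96 TPM, and Mp8g11880 was above 0 in 2 libraries. Mp8g11890 had 2.22 to 5.65 TPM and an r of 0.514.

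Other groups of genes were set beside MpR2R3-MYB5. Basic helix-loop-helix (bHLH) proteins are partners of R2R3-MYB proteins in flowering plants. Of 36 tested bHLH genes 3, 5, 4 and 1 rose at 30 min of white, blue, red and far-red light and 0 fell. Of all tested genes 2.49%, 4.5%, 4.19% and 0.253% rose and 0.437%, 0.613%, 0.575% and 0.0383% fell, so the 0 falls are near the background. The list's medians were 0.46, 0.527, 0.514 and 0.338, beside 0.134, 0.169, 0.172 and 0.0587 over all tested genes. With TMM scaling the count of rises in blue light was 2, where 312 of all 13054 genes rose. At 24 h 2 rose and 5 fell in white light, 4 rose and 4 fell in blue, 2 rose and 10 fell in red, and 5 rose and 0 fell in far-red light. Over all genes 14.5%, 13.5%, 16% and 5.98% rose and 11.7%, 10.1%, 13.6% and 2.98% fell, so the counts in white and blue light were near or below the background, and red light had 27.8% of the list falling. With TMM scaling 3 rose and 1 fell in far-red light, where 602 and 547 of all 13054 genes did so. Without replicate 1 of every group, 1 rose in red light and 1 fell in far-red light. MpBHLH21 was the bHLH gene with the largest rise in far-red light at 24 h, to 280.6 TPM against 39.64 TPM in darkness.

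Of 40 tested genes of phenylpropanoid and flavonoid synthesis, 12, 11 and 15 rose at 30 min of white, blue and red light and 0 fell. Of all tested genes 2.49%, 4.5% and 4.19% rose and 0.437%, 0.613% and 0.575% fell. The list's medians were 0.305, 0.317 and 0.43, beside 0.134, 0.169 and 0.172 over all tested genes. In far-red light 0 rose and 0 fell at 30, 60 and 180 min by limma, 0 rose and 4 fell at 12 h, and 2 rose and 5 fell at 24 h (1 rose at 24 h with TMM scaling). At these times 0.253%, 2.05%, 1.71%, 2.21% and 5.98% of all tested genes rose in far-red light. The shares of all tested genes that fell were 0.0383%, 0.276%, 0.253%, 1.04% and 2.98%. Counts of 0 among 40 genes are thus near the background. The 4 falls at 12 h and the 5 falls at 24 h among 40 genes are above it. At an unadjusted p under 0.05, with no limit on size, 4, 17 and 18 of the 40 were higher and 6, 6 and 7 lower at the first 3 times, beside 31.9%, 41.4% and 31.6% of all tested genes higher and 14.8%, 14.6% and 18.2% lower. Up to 3 rose when a replicate was left out of every group. At 60 min 17, 17 and 19 rose and 1, 1 and 0 fell in white, blue and red light. Of all genes 7.41%, 8.56% and 9.89% rose and 2.33%, 2.11% and 2.41% fell. At 180 min 12, 15 and 14 rose and 6, 5 and 6 fell. Over all genes 10.6%, 9.64% and 10.1% then rose and 8.53%, 8.09% and 8.69% fell. At 24 h of blue light 7 rose and 6 fell (17.5% and 15.0%), close to the 13.5% and 10.1% of all tested genes. White light at 24 h had 15.0% rising and 15.0% falling, beside 14.5% and 11.7%. Red light had 25.0% and 12.5%, beside 16% and 13.6%. Near-identical copies of the chalcone synthase family in this list may share reads, so single members are not named. Of 21 light signalling genes, 3, 3, 2 and 1 rose at 30 min in white, blue, red and far-red light and 0 fell. Of all tested genes 2.49%, 4.5%, 4.19% and 0.253% rose and 0.437%, 0.613%, 0.575% and 0.0383% fell. The medians of the light signalling list were 0.441, 0.582, 0.498 and 0.389, beside 0.134, 0.169, 0.172 and 0.0587. The B-box gene MpBBX2 went from 0.649 TPM in darkness to 14.28 TPM in blue light, a log2 difference of 3.23 that exceeded that of MpR2R3-MYB5, and the phytochrome gene MpPHY went from 132.1 to 283.2 TPM in far-red light. The call of MpPHY at 30 min of far-red light, the only one of the list there, was lost when replicate 2 was left out of every group. At 24 h 2, 1, 1 and 4 of the 21 genes rose in white, blue, red and far-red light. In the same lights 3, 4, 7 and 0 fell. Of all tested genes 14.5%, 13.5%, 16% and 5.98% then rose and 11.7%, 10.1%, 13.6% and 2.98% fell.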

How the data were processed

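Paired 150-base poly(A) libraries were made by the authors. Per the submitters' processing notes, reads were aligned with STAR; the aligner's version, the quantifier, its strand setting, the annotation and the build were not given in the sources used here. The deposited values are TPM (per the file's column sums, 1000000 in each of 78 libraries), set by the authors from read numbers and transcript lengths; TPM keeps no depth, so precision rests on the 3 replicates. A deposited table of means equals the mean of the replicates within 1e-06 and was not used further.

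Identifiers were named by locus-tag number in the RefSeq gene names of MpTak2_v7.1, where 17384 of 19355 matched and 3091 had a symbol. No coordinates or sequences are printed. Fits used the 13054 genes that reached 1 TPM in 3 or more of the libraries, as log2(TPM + 1), with limma 3.58.1 (R 4.3.3, trend=TRUE), with 1 mean per group over all 78 libraries, 2-sided tests and Benjamini-Hochberg adjustment over all tested genes within each comparison. This scale understates the change of low genes. The fit was tested on simulated data. Of MpR2R3-MYB5, 37 comparisons were tested, with a threshold of 0.05 on the adjusted p. Lists of the MYB family (with MpGCAM1 added), bHLH family, phenylpropanoid and flavonoid synthesis and light signalling were drawn by symbol. List counts also required a log2 difference of at least 1. The gene, the lists and the tests were chosen with earlier results of these data known. Numbered C3H symbols, which name a zinc finger family, were left out of the synthesis list after the name table was seen.

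Named genes are the 5 of highest r, the 5 of highest r and 3 of lowest r with a symbol, the 3 family members of highest and of lowest r, the 2 identifiers on either side, and up to 3 rises and falls per list, light and time. Alternatives were other pseudocounts (0.1, 0.5), filters, TMM (computed from its formula) and median-of-ratios scaling of TPM, array weights, a replicate block, and leaving out replicates.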

Additional observations from a re-analysis of the deposited data

Results flagged for a closer look

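For MpR2R3-MYB5, the difference from darkness was not the same at 24 h as at 180 min in 3 of the 4 lights, by a test of that difference (limma, SE 0.139). The change was −1.40 in white light (adjusted p = 2e-13), −2.54 in blue light (adjusted p = 1.3e-24) and −1.56 in red light (adjusted p = 2.7e-15) on the log2(TPM + 1) scale. In every one of these lights all 3 libraries of 24 h were below all 3 of 180 min, and in darkness all 3 were above.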

How the results depend on the processing

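The 37 tested comparisons of MpR2R3-MYB5 gave 727 values under the alternatives, and 709 kept their direction and their side of the threshold. In 31 comparisons none changed, among them 11 of the 12 differences from darkness, all 4 changes between 180 min and 24 h and all 3 of darkness against time zero. White minus red light at 24 h (0.03) was −0.005027 with TMM, −0.003781 with median-of-ratios factors and −0.02875 with array weights, and −0.1099 to 0.1528 with replicates left out. The other changes came from leaving out replicates and so from fewer libraries. Red minus darkness at 24 h went from −0.02258 to 0.1308, white minus red at 180 min from −0.2036 to 0.002007, blue minus far-red at 12 h from −0.0258 to 0.1515 and blue minus red at 180 min from 0.198 to 0.4002, with adjusted p up to 0.31. White minus blue at 12 h went from 0.3335 to 0.4665 and missed the threshold (adjusted p = 0.061) without replicate 2 of every group. Where these leave a group with 2 libraries, the pooled spread of the limma fit is used. At 30 min the untested differences ranged over all settings from 2.61 to 2.88 in white, 2.77 to 3.08 in blue, 2.56 to 2.86 in red and 1.3 to 1.47 in far-red light.

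Same-numbered replicates did not deviate together (mean r −0.00345, against 0.0017 for other numbers; 28 of 78 libraries correlated best with their own number), so the numbers are not taken as pairs; a fit with a replicate block gave −0.6394 for blue minus darkness at 24 h and changed no call of the gene. Of 1672 list counts under alternatives, 1573 stayed within 1.5 times; 18 moved with TMM, 20 with median-of-ratios factors and 24 with a pseudocount of 0.1. With TMM, 69.8% of all calls at 30 min of blue light were rises, against 88.0% without, and 60.4% against 80.3% at 60 min. Without the darkness library that stands apart, bHLH rises at 60 min of far-red light were 8 in place of 3. The cause of these shifts was not tested, and with depth unknown no counting error can be given.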
